A study of Mus musculus with 4 samples.

Results

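The nucleosome remodelling and deacetylase complex, NuRD, was read through 10 of its subunit genes: Chd3, Chd4, Hdac1, Hdac2, Mta1, Mta2, Mta3, Mbd3, Rbbp4 and Rbbp7. All probe sets whose single gene symbol in the platform annotation is one of these genes were taken, 13 of the 45141 in the table, and none was left out for a low signal. Chd4 was chosen by its knockdown minus control difference in these same 4 arrays, where its signal was lower, so its values are a description and carry no test. The other 9 genes, read by 12 probe sets, were included as subunits of the same complex.

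RNA came from ATDC5, a mouse chondrogenic cell line that makes cartilage-like matrix in differentiation medium. Both groups were transfected for 16 h with 30 nM of an RNA duplex, which the labels call an shRNA, in a lipid reagent and harvested after 5 days of differentiation. The 2 control arrays received a scrambled duplex, and the 2 knockdown arrays received a duplex against Chadl (chondroadherin-like), a gene for a cartilage protein with leucine-rich repeats. The labels name a single sequence as effective against Chadl, and it is shown because it defines the treatment. It has 25 bases, and the labels describe the duplexes as 27-mers.

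Chadl duplex, strand as given by the submitters: acaagguagagaaacaaagagacca

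NuRD joins 2 enzymatic activities in a single complex. The ATPases Chd3 and Chd4 move nucleosomes along DNA, and the deacetylases Hdac1 and Hdac2 remove acetyl groups from histone tails. Mta1, Mta2 and Mta3 are scaffolds that bind the deacetylases, Rbbp4 and Rbbp7 are histone-binding WD-repeat proteins, and Mbd3 belongs to the methyl-CpG-binding domain family and links the deacetylase and remodelling parts. The complex is best known as a transcriptional co-repressor in differentiating cells.

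Values are log2 signals, so a difference of 1 is a doubling of signal, and differences are knockdown minus control. Median signal was between 4.24 and 4.25 on the 4 arrays. Over all probe sets the SD of the log2 difference was 0.11 between the controls and 0.19 between the knockdowns, so the knockdown pair was the less alike. Knockdown 1 stood farther from the controls, with SDs of 0.193 and 0.194 against them, than knockdown 2, with 0.14 against each. Chadl itself read 4.91 and 4.84 in control arrays, against 4.29 in knockdown 1 and 4.64 in knockdown 2, lower in both knockdown arrays, and its difference of -0.41 (SE 0.12) did not pass over all probe sets (adjusted p = 0.608, limma). Of 8 chondrocyte markers, 7 had a signal at or above the median of all probe sets, among them Sox9 and Col2a1, and their summed linear signal was 1718 and 1776 in control arrays, against 1537 and 1920 after knockdown. Of these markers, Col2a1 lay 0.82 and Col9a1 0.68 log2 units below the control mean in knockdown 1. In knockdown 2 both lay above it, by 0.12 and 0.17. The other markers, by brightest probe set, did not move with them as a group. From the control mean, Col11a1 lay at 0.10 and 0.20 in knockdowns 1 and 2, and Sox5 at -0.35 and -0.16. Sox9 (0.01 and -0.01) and Acan (-0.01 and -0.01) stayed close to it. Sox6 (0.10 and -0.03) and Comp (-0.05 and 0.13) lay on either side. Member values are therefore given array by array. Over the 4 arrays, markers of adipocytes summed to between 49.6 and 54.6 and of skeletal muscle to between 78.8 and 81.5. Those of leukocytes summed to between 53.5 and 59.6. At or above the median signal were 1 of 3 adipocyte, 2 of 4 skeletal muscle and 1 of 3 leukocyte markers. In this bulk RNA, fewer cells of a type and less RNA per cell cannot be told apart, and replicates are called biological by the labels without a statement that cultures were separate.

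The data show a lower Chd4 signal in both knockdown arrays and no difference of that size in the other 9 subunit genes. Chd4, the main ATPase of the complex, was 1.34-fold lower, while the 12 other probe sets differed by between -0.11 and 0.13 on the log2 scale. Chd4 was chosen for its fall and the others were not. Of all probe sets tested, 199 (0.442%) had a lower difference than Chd4. None of those 12 passed an adjusted p of 0.05 (limma, Benjamini-Hochberg over 45037 probe sets), and 0 of 12 had an unadjusted p under 0.05. Over all probe sets 0.00222% passed the adjusted threshold and 7.26% the unadjusted one, so the absence of calls among 12 probe sets is near the background. No probe set of the other 9 genes was among those that passed the adjusted threshold. Chd4, chosen by these same values, is given no verdict.

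**Figure D1:**
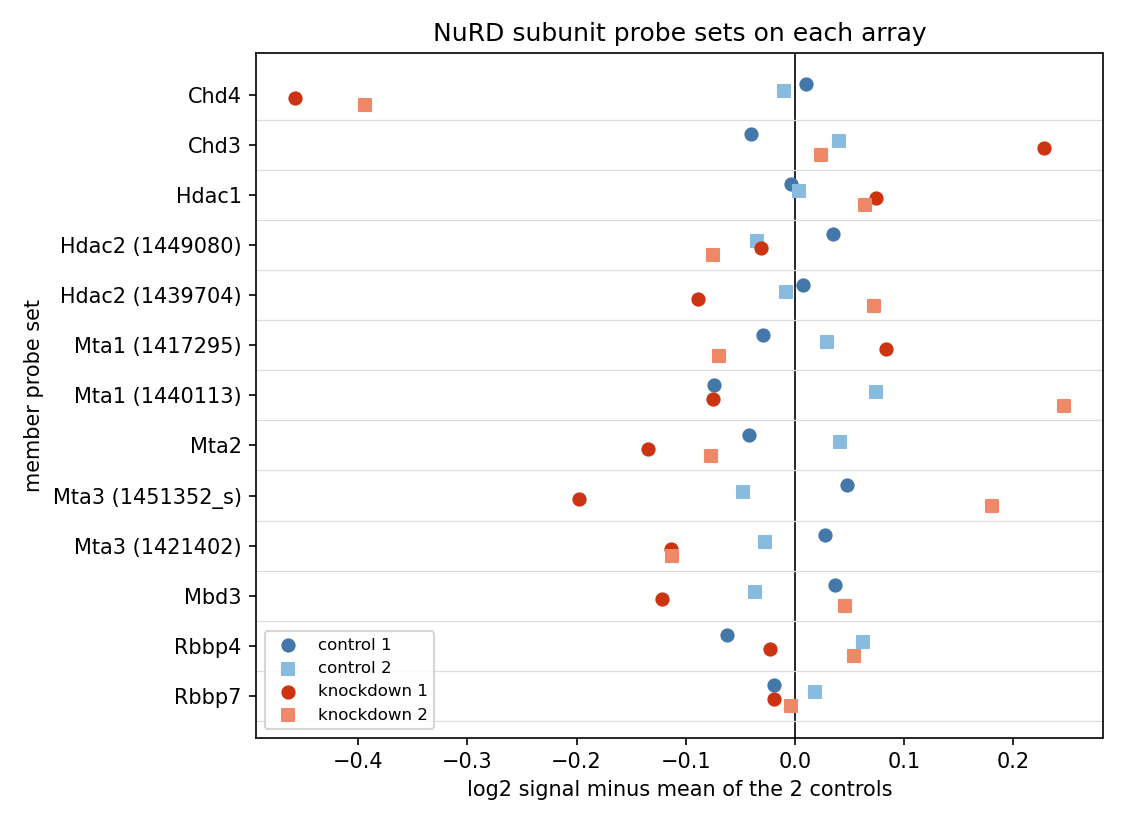
Log2 signal of each of the 13 NuRD subunit probe sets minus the mean of its 2 controls, on the horizontal axis, with a point for each array (blue for controls, red for knockdowns). Chd4 has both knockdown arrays at -0.46 and -0.39, and no other knockdown value lies below -0.20.

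The remodelling ATPases had mean differences of opposite sign. Chd4, read by the single probe set 1438476_PM_a_at, had log2 signals of 6.88 and 6.86 in control arrays, against 6.41 in knockdown 1 and 6.48 in knockdown 2. The groups did not overlap, and the gaps within them were 0.02 in the controls and 0.06 in the knockdowns. The difference was -0.43 (SE 0.08), with knockdown 1 lying 1.37-fold and knockdown 2 lying 1.31-fold below the control mean.

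Because a single probe set reads Chd4, a change of the whole transcript and a change of the stretch this probe set reads cannot be told apart here. The position of the probe set in the transcript was not analysed here. The ratio of 3' to 5' signal of the array's Gapdh controls, a measure of RNA integrity and labelling, was 0.07 and 0.07 on the log2 scale in control arrays, against 0.09 and 0.15 after knockdown. That of b-Actin was 0.81 and 0.83 against 0.80 and 0.82. The b-Actin ratios overlapped and the Gapdh ratios were slightly higher in the knockdowns, and their part in the Chd4 signal was not tested.

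Chd3, the ATPase that takes the place of Chd4 in some NuRD complexes, read 5.60 and 5.68 in control arrays, against 5.87 and 5.67 after knockdown. Knockdown 1 lay above both controls and knockdown 2 between them. The difference was 0.13 (SE 0.10, 95% confidence interval -0.11 to 0.36, adjusted p = 0.813, limma), and it was 0.02 without knockdown 1 and 0.23 without knockdown 2 (adjusted p = 0.955 and 0.0979, limma). Chd3 and Chd4 are related in sequence, and whether their probes also bind each other's transcripts was not analysed here.

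Of the histone deacetylases, Hdac1 was the only member probe set with both knockdown arrays above both controls. It read 8.30 and 8.31 in control arrays, against 8.38 and 8.37 after knockdown, with gaps of 0.01 within each group. The difference of 0.07 (SE 0.06, interval -0.07 to 0.21, adjusted p = 0.826, limma) was small, and the SE drew on the spread of other probe sets of like signal. The Hdac2 probe set with the higher signal, 1449080_PM_at, read 9.86 and 9.79 against 9.80 and 9.75, a difference of -0.05 (SE 0.05, adjusted p = 0.831, limma). Its groups overlapped by a margin under 0.01, since knockdown 1 lay just above control 2. The other, 1439704_PM_at, read 4.52 and 4.51 against 4.43 and 4.59, with the knockdown arrays on either side of the controls and a difference of -0.01 (SE 0.09, adjusted p = 0.99, limma).

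The Mta scaffolds gave small differences of either sign. Mta2 read 6.01 and 6.10 in control arrays, against 5.92 and 5.98 after knockdown, below both controls in both arrays, a difference of -0.11 (SE 0.09, interval -0.31 to 0.10, adjusted p = 0.815, limma). The margin between the groups was smaller than the gap between the controls, 0.08. Taking each gene by its brightest probe set, Mta2 was the member nearest to Chd4 in its pattern over the 4 arrays, at a Euclidean distance of 0.46 between log2 deviations from the control mean, against 0.81 for Chd3, the farthest.

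The 2 probe sets of Mta3 parted. On 1421402_PM_at Mta3 read 5.40 and 5.35 in control arrays, against 5.26 and 5.26 after knockdown, below both controls, a difference of -0.11 (SE 0.08, interval -0.31 to 0.08, adjusted p = 0.798, limma), the lowest adjusted p of the 12. On 1451352_PM_s_at it read 6.33 and 6.23 against 6.08 and 6.46, with knockdown 1 below and knockdown 2 above both controls, and a difference of -0.01 (SE 0.13, adjusted p = 0.992, limma). The knockdown gap there, 0.38, was the widest of the 13 probe sets. The groups were thus separate on 1 Mta3 probe set and overlapped on the other.

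Mta1 showed no common direction. Its probe set 1417295_PM_at read 6.29 and 6.35 in control arrays, against 6.40 and 6.25 after knockdown, 1 knockdown array above and 1 below both controls, for a difference of 0.01 (SE 0.09). The dim probe set 1440113_PM_at, at the 19.5th percentile of signal, read 3.35 and 3.50 against 3.35 and 3.67, a difference of 0.09 (SE 0.12), with knockdown 2 above both controls and knockdown 1 level with the lower one. Adjusted p was 0.991 and 0.895 for these probe sets (limma). At the low signal of 1440113_PM_at an array can understate changes, so the small difference says little, while the remaining 12 member probe sets had signals at or above the median of all probe sets.

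Mbd3 read 7.39 and 7.32 in control arrays, against 7.23 and 7.40 after knockdown, a difference of -0.04 (SE 0.09, interval -0.24 to 0.16). Knockdown 1 lay below both controls and knockdown 2 just above both. The histone-binding subunits lay close to control. Rbbp7, with the narrowest interval of the 12, read 10.50 and 10.54 against 10.50 and 10.52, a difference of -0.01 (SE 0.04, interval -0.09 to 0.07). Rbbp4 read 9.49 and 9.61 against 9.53 and 9.60, a difference of 0.02 (SE 0.06, interval -0.12 to 0.15). For both genes the knockdown arrays overlapped the controls. Adjusted p was 0.939 for Mbd3, 0.967 for Rbbp4 and 0.958 for Rbbp7 (limma). These genes serve other complexes as well, among them PRC2, which methylates histone H3, and the SIN3 deacetylase complex for Rbbp4 and Rbbp7.

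**Figure D2:**
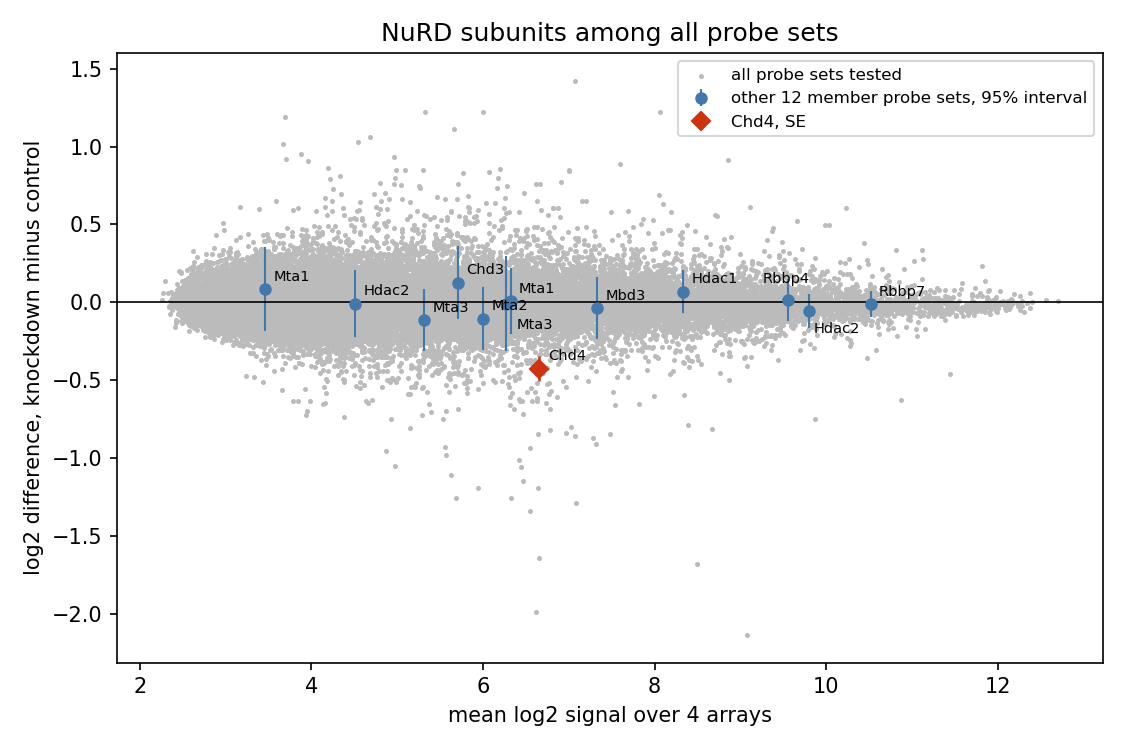
Log2 difference, knockdown minus control, against mean log2 signal over the 4 arrays for all 45037 probe sets tested (grey), the 12 NuRD subunit probe sets other than Chd4 (blue, bars are 95% confidence intervals) and Chd4 (red, bar is 1 SE on each side). The blue intervals all cross 0 and are narrowest for Rbbp7, at the right, and Chd4 lies at -0.43.

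The precision of the arrays sets what these intervals leave room for. The 95% confidence intervals of the 12 probe sets reached no lower than -0.31 and no higher than 0.36. A lower signal of more than 1.24-fold or a higher one of more than 1.28-fold thus lay outside every interval, while smaller changes lay within 1 interval or more. An exact permutation test of 2 against 2 arrays cannot give a two-sided p below 0.333, so none was run.

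In the mean over both knockdown arrays the 13 probe sets stayed near all others as a set. Their median difference was -0.01, against -0.0018 over all probe sets tested. The arrays differed, with member medians of -0.08 in knockdown 1 and 0.02 in knockdown 2, against -0.01 and 0.0024 over all probe sets. Without Chd4 the member medians were -0.05 and 0.03. Both knockdown arrays lay below both controls for 3 of 13 (Chd4, Mta2 and 1 of the 2 Mta3 probe sets) and above both for 1 of 13 (Hdac1), against 19.9% and 18.6% of all probe sets. Without Chd4, which was chosen for this direction, 2 of 12 lay below. With 1 array left out, fewer arrays have to be separated. The count below was then 8 of 13 without knockdown 2, against 40.6% of all probe sets, and 5 of 13 without knockdown 1, against 35.4%. It was 5 of 13 without control 1 and 4 of 13 without control 2, against 32.7% and 32.6%. Each of these counts includes Chd4. In knockdown 1, 10 of 13 probe sets lay below the control mean, against 53.1% of all probe sets, and in knockdown 2, 6 of 13 did, against 49.1%. The knockdown arrays lay on opposite sides of the control mean for 6 of 13 members and for 39.8% of all probe sets. The knockdown gap exceeded the control gap for 8 of 13 members, 61.5%, and for 61.4% of all.

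The subunits and cofactors of NuRD outside the 10 genes gave no call either. In the 10 probe sets of Mbd2, Gatad2a, Gatad2b, Chd5 and Cdk2ap1, 0 passed the adjusted threshold in either direction, 3 lay below both controls on both knockdown arrays and 2 lay above, against 19.9% and 18.6% of all probe sets, and the median difference was -0.04. Cdk2ap1, a small NuRD-associated protein, read 10.25 and 10.23 in control arrays, against 10.07 and 10.24 after knockdown. Only knockdown 1 was lower, for a difference of -0.09 (SE 0.06). Chd5, an ATPase related to Chd4, read 5.32 and 5.48 against 5.43 and 5.06, a difference of -0.16 (SE 0.13) that came from knockdown 2. One of the 4 probe sets of Gatad2a, a zinc-finger subunit that binds Mbd2 and Mbd3, was lower at an unadjusted p of 0.0464 (-0.24, SE 0.10), and its other 3 differed by 0.03 to 0.06. This Gatad2a probe set was chosen after its values were seen.

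Among 28 probe sets of transcription factors and cofactors that recruit NuRD, the largest difference was that of Zfpm2 (FOG2), a zinc-finger co-repressor that binds the complex. Zfpm2 read 5.63 and 5.62 in control arrays, against 6.47 and 5.87 after knockdown, above both controls in both arrays, a 1.46-fold higher signal (log2 difference 0.54, SE 0.18, adjusted p = 0.623, limma). Most of it lay in knockdown 1, at 0.84 above the control mean against 0.25 in knockdown 2, and the other Zfpm2 probe set had the same sign. Sall4, a zinc-finger factor gene, differed by -0.11 with its other probe set of opposite sign. In this list 0 passed, 3 had both knockdown arrays below and 7 had both above both controls, against 19.9% and 18.6% of all probe sets.

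Chd4 also joins the homeodomain protein Adnp and HP1 proteins in the ChAHP complex. In the list of those partners 0 of 12 probe sets passed. Both knockdown arrays lay below both controls for 3 and above for 1, against 19.9% and 18.6% of all probe sets. Adnp read 10.00 and 10.05 in control arrays, against 10.12 and 10.09 after knockdown, above both controls by a small margin (0.08, SE 0.04). Cbx1, an HP1 gene, lay lower at -0.12 (SE 0.06), though 2 of its 4 probe sets had the other sign. Of 15 probe sets of other CHD remodellers, 0 passed, 5 had both knockdown arrays below and 3 above both controls, where 19.9% and 18.6% of all probe sets did. Chd7 differed by 0.23 (SE 0.09) and Chd6 by 0.14 (SE 0.08), although for each gene 1 of 2 probe sets had the other sign. The list, which also holds Chd5, had a median difference of -0.0025.

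Of the other histone deacetylases, Hdac9 stood lowest. Hdac9, a class IIa deacetylase, read 4.73 and 4.75 in control arrays, against 3.85 and 4.17 after knockdown, clear of the controls in both arrays and 1.66-fold lower (log2 difference -0.73, SE 0.11, unadjusted p = 0.000305, adjusted p = 0.401, limma). Its second, dimmer probe set differed by -0.01. Hdac6, whose product deacetylates tubulin, differed by 0.12 (SE 0.10). In this list 0 of 10 probe sets passed, 3 had both knockdown arrays below and 0 above both controls, against 19.9% and 18.6% of all probe sets.

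**Figure D3:**
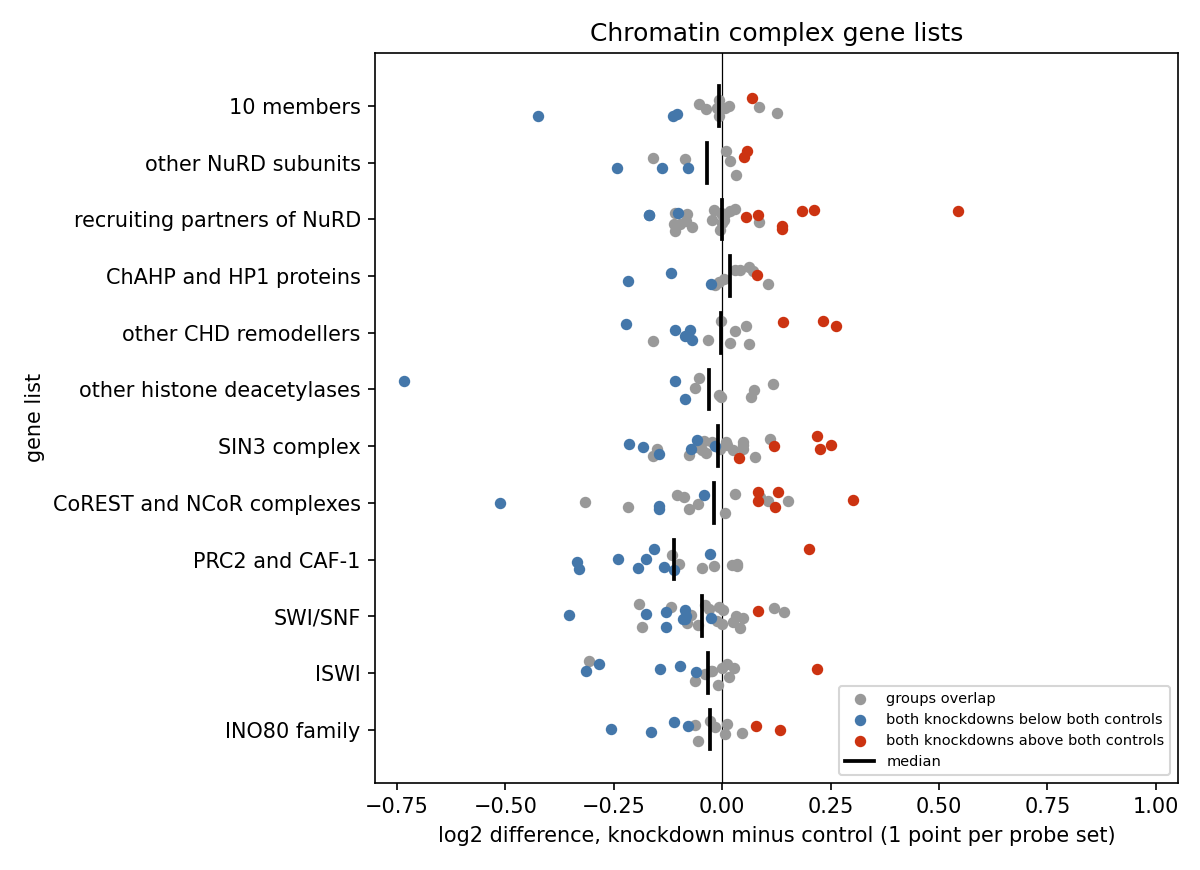
Log2 difference, knockdown minus control, of each probe set in the 10 NuRD subunit genes and in 11 lists of related chromatin genes. Points are blue where both knockdown arrays lay below both controls, red where both lay above and grey otherwise, and black bars are list medians. The medians lie between -0.11 for PRC2 and CAF-1 and 0.02 for ChAHP and HP1 proteins, the lowest point is Hdac9 at -0.73, and Chd4 lies at -0.43.

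The polycomb complex PRC2 contains Rbbp4 or Rbbp7 and the chromatin assembly factor CAF-1 contains Rbbp4, and the list of their other subunits had the lowest median of the 11, at -0.11. Of its 17 probe sets 0 passed, 9 lay below both controls on both knockdown arrays and 1 lay above, against 19.9% and 18.6% of all probe sets. The 9 include all 6 probe sets of Suz12, a core subunit of PRC2, so that this gene, unlike Chd4, was read as lower by several probe sets. The Suz12 probe set with the highest signal read 8.64 and 8.64 in control arrays, against 8.51 and 8.46 after knockdown (-0.16, SE 0.06), and the 6 ranged from -0.33 to -0.16, 5 of them at an unadjusted p under 0.05, where 3.83% of all probe sets were lower, and none past the adjusted threshold. The probe sets of 1 gene share their RNA and may overlap, so they are not independent readings. The catalytic subunit gene Ezh2 (-0.03) and Eed (0.03), picked after their values were seen, stayed close to control, and the CAF-1 subunit gene Chaf1b differed by -0.13 (SE 0.09), with its other probe set of opposite sign.

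The further complexes that share or resemble NuRD parts each had 0 probe sets past the threshold. Both knockdown arrays lay below both controls for 6 of 28 in the SIN3 list, 4 of 20 in the CoREST and NCoR list, 9 of 28 in the SWI/SNF list, 5 of 16 in the ISWI list and 4 of 13 in the INO80 list, against 19.9% of all probe sets. They lay above both for 5, 5, 1, 1 and 2 in the same order, against 18.6%. In the SIN3 list (28 probe sets, median -0.01) Arid4b differed by 0.25 (SE 0.09), though 3 of its 5 probe sets had the other sign, and Arid4a by -0.18 (SE 0.08). In the CoREST and NCoR list (20 probe sets, median -0.02) Rcor2 differed by -0.32 (SE 0.18), from knockdown 1 alone, and Tbl1xr1 by 0.12 (SE 0.07). In the SWI/SNF list (28, median -0.05) Smarcd3 differed by -0.19 (SE 0.12) and Smarcd2 by -0.09 (SE 0.06). In the ISWI list (16, median -0.03) the histone-binding subunit gene Rsf1 differed by -0.32 (SE 0.08), though 2 of its 3 probe sets had the other sign, and the ATPase gene Smarca1 by 0.22 (SE 0.08). In the INO80 list (13, median -0.03) Actr8 differed by -0.11 (SE 0.08) and Ep400 by 0.08 (SE 0.06). The named genes differed in sign within 4 of these 5 lists, SWI/SNF being the exception, and Tbl1xr1, Ep400 and Smarcd2 also had probe sets of opposite sign.

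Of single probe sets in these lists, named here only because their values stood out, 1 of the 3 of Tbl1x, an NCoR subunit gene, read 4.58 and 4.68 in control arrays, against 4.21 and 4.03 after knockdown (-0.51, SE 0.10), while its other 2 differed by -0.08 and 0.01. Pbrm1, a bromodomain subunit gene of SWI/SNF, differed by -0.35 (SE 0.09) on 1 of its 3 probe sets and by 0.0012 and -0.04 on the others. Smarca5, an ISWI ATPase gene, differed by -0.28 (SE 0.07) on 1 of 3 and by -0.06 and -0.04 on the others. In the other direction, 1 of the 5 probe sets of Tbl1xr1 differed by 0.30 (SE 0.08), above both controls on both knockdown arrays. Its others ranged from -0.15 to 0.12. None of these passed the adjusted threshold (limma).

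Over all 11 lists, 82 of 93 genes were measured by 194 probe sets, of which 0 passed the adjusted threshold in limma. At an unadjusted p of 0.05, 14 were lower (7.22%) and 8 higher (4.12%), against 3.83% and 3.42% of all probe sets. Both knockdown arrays lay below both controls for 27.8% and above for 13.9% of them, against 19.9% and 18.6% of all. Suz12 alone gave 5 of the 14 lower probe sets and 6 of those below both controls. Its probe sets are not independent readings. The median difference of all 194 list probe sets was -0.02. In the fit without knockdown 1, 18 of the 194 passed (9.28%, against 3.71% of all probe sets), and without knockdown 2, 25 did (12.9%, against 12.8%), where the spread of the remaining knockdown array was assumed equal to that of the controls. In neither of these fits did any of the 12 subunit probe sets other than Chd4 pass.

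The genes whose signals over the 4 arrays were most like those of Chd4 were found by Euclidean distance between deviations from the control mean, among 8548 genes at or above the median signal. The nearest were Bclaf1, a nuclear protein of transcription and RNA processing (distance 0.05), the splicing regulator gene Tra2b (0.06), the small GTPase gene Rab7b (0.09), Zeb2, a zinc-finger transcriptional repressor (0.09), and Lrrfip1, whose product binds nucleic acids (0.10). Bclaf1 read 6.72 and 6.70 in control arrays, against 6.30 and 6.34 after knockdown. Tra2b read 5.69 and 5.71 against 5.24 and 5.26. Each of the 5 had both knockdown arrays below both controls, with differences between -0.45 and -0.38, as follows from the choice. A second probe set of Bclaf1, dim at 2.89 and 2.82 against 2.86 and 2.94, and 1 of 4 of Zeb2 had the opposite sign, while both probe sets of Lrrfip1 and of Rab7b had the same sign. The likeness rests on 4 arrays and carries no test.

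**Figure D4:**
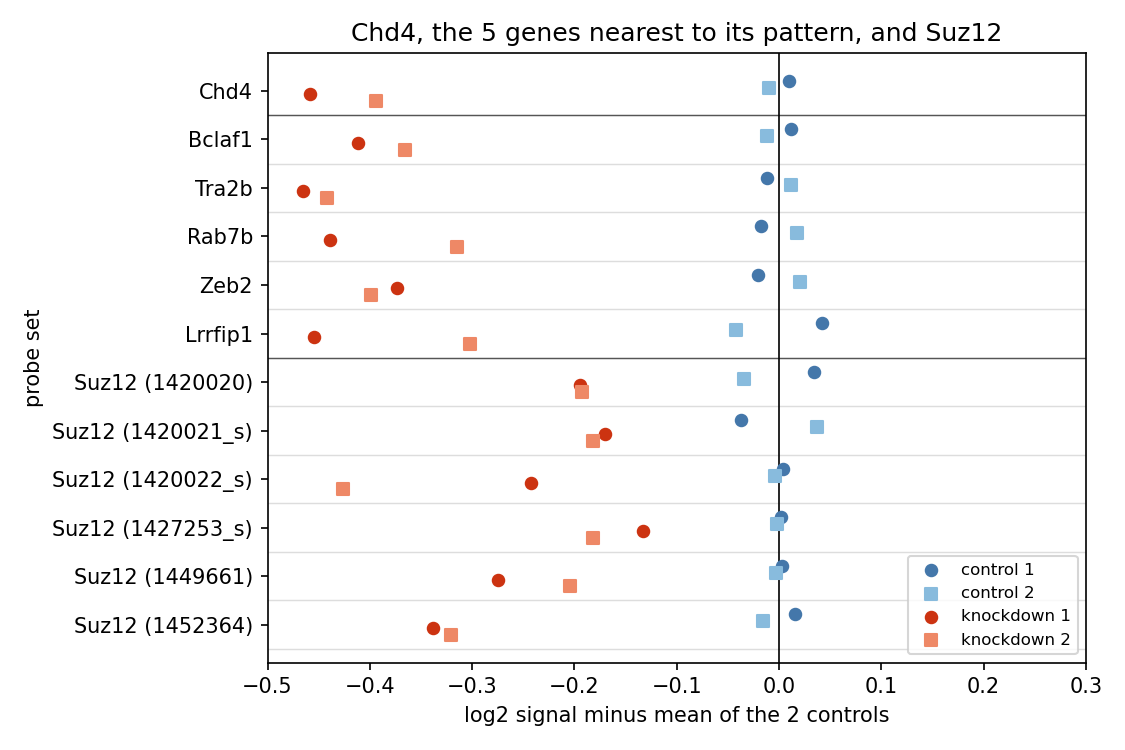
Log2 signal minus the control mean on each array for Chd4, the 5 genes nearest to its pattern and the 6 probe sets of Suz12, with a point for each array (blue for controls, red for knockdowns). Knockdown values of Chd4 and its 5 neighbours lie between -0.47 and -0.30, and those of Suz12 lie below 0 on every probe set.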

How the data were processed

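The deposited table holds log2 signals per probe set on 4 Affymetrix mouse arrays, which the authors, per the submitters' processing notes, made with RMA. RMA makes the arrays' distributions alike, hides differences in total RNA and compresses changes of dim genes. The log base was read from the range of values, 2.17 to 12.72, and the software version is not given in the sources used here. Of 45141 probe sets, 104 array controls were left out of the tests. By the platform annotation, which can be old, 28898 carried 1 gene symbol, and all 13 members' gene IDs had the same symbol in a RefSeq table (GRCm38.p6). Samples were grouped by title.

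Knockdown was compared with control over 45037 probe sets in R 4.3.3 with the package limma 3.58.1 (lmFit and trended eBayes, 2 residual and 5.32 prior degrees of freedom, two-sided, Benjamini-Hochberg, threshold 0.05). The step was tested on simulated data that gave both groups the same spread, unlike these arrays, where the knockdown pair was less alike. Members and lists were chosen with earlier results of these data known. From each list the text names genes with a passing probe set, or otherwise the 2 genes whose brightest probe set had the smallest unadjusted p. It also names the 5 genes nearest to Chd4. P-values reflect only how these samples spread, possibly a technical spread, and the number of arrays limits precision. Alternatives were quantile normalization, median centring, a filter at the 40th percentile of signal, 1 value per gene (brightest or mean), eBayes without trend or robust, leaving out each array, and a block for the replicate number. Genes not named by 1 symbol were not analysed here.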

Additional observations from a re-analysis of the deposited data

How the results depend on the processing

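Under the 8 alternatives that keep all arrays, the 12 subunit probe sets other than Chd4 kept their direction where tested and none passed (adjusted p 0.747 to 0.997, limma), the Chd4 difference stayed between -0.43 and -0.42, and 0 of the list probe sets passed. Leaving out an array gave 0 of the 12 past the threshold (lowest adjusted p 0.0979, for Chd3, limma), 4 to 8 members below both controls, a member median of -0.08 to 0.02, a Chd4 difference, not tested, of -0.46 to -0.39 and 0 to 25 list probe sets past the threshold. With an array left out, 32.6% to 40.6% of all probe sets lay below in the same way. List probe sets passed only in the fits without a knockdown array, where probe sets outside the lists passed too. Their share was near that of all probe sets without knockdown 2 and above it without knockdown 1. The direction turned for 7 small differences when an array was left out, and the cause was not tested. Their ranges were -0.0885 to 0.0723 for Hdac2 (1439704_PM_at), -0.122 to 0.0456 for Mbd3, -0.0698 to 0.0833 for Mta1 (1417295_PM_at), -0.0751 to 0.247 for Mta1 (1440113_PM_at), -0.197 to 0.181 for Mta3 (1451352_PM_s_at), -0.0464 to 0.0777 for Rbbp4 and -0.0302 to 0.0075 for Rbbp7. The other 5 kept their direction, with ranges of 0.0235 to 0.228 for Chd3, 0.0641 to 0.0747 for Hdac1, -0.0879 to -0.0179 for Hdac2 (1449080_PM_at), -0.147 to -0.0635 for Mta2 and -0.141 to -0.0853 for Mta3 (1421402_PM_at). Same-numbered arrays did not deviate together (correlation 0.01 between the pairs' differences over probe sets). With the replicate block 0 of the 12 subunit probe sets other than Chd4 passed. The member median was then -0.0084 and the Chd4 difference, not tested, -0.43. Fits without a knockdown array take the other to vary like the controls. Array number limits precision, and dim probe sets such as 1440113_PM_at can hide a change.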
